A study of Homo sapiens with 30 samples.

Results

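Kinesin genes, centromere protein genes and 6 mitotic regulators were examined in bronchial epithelial cells after hookah smoke exposures. Genes were chosen by name: those named KIF or CENP followed by the usual numbers and letters, together with TTK, NDC80, CCNA2, CCNB1, AURKA and HMMR. The deposited tables held 49 such names, and 37 of them reached 1 FPKM (fragments mapped to a transcript, scaled to its length and to the size of the library) in at least 3 of 30 libraries, out of 8531 genes that did so in all. The 37 were sorted into 6 mitotic regulators, 7 mitotic kinesins, 14 centromere proteins and 10 other kinesins, called roles below. The 14 centromere proteins are all members named CENP, so the centriole protein CENPJ is counted among them. The 10 other kinesins are all KIF members outside the 7 mitotic kinesins. Counts by role therefore rest partly on gene names. The other 12 names, all kinesins such as KIF1A, KIF9 and KIF17, stayed below that level. KIF20A, KIF23 and KIF4A were not among the 49 names, so they could not be examined.

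BEAS-2B, an established human bronchial epithelial cell line, was exposed for 30 min on a rocker and lysed 2 h or 24 h later, with 3 wells per group and 30 libraries in all. The groups were control, charcoal burnt with no shisha (charcoal alone), herbal shisha without tobacco on charcoal, tobacco shisha on charcoal, and tobacco shisha on an electric heater, each at both times. Each exposure was set at the highest level without release of lactate dehydrogenase at 24 h, so doses were not matched by smoke mass. The labels do not say how control wells were handled or whether wells were separate cultures, so p-values measure the spread between wells, which may be technical. All values come from this single cell line.

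Kinesins are motor proteins that walk along or shorten microtubules, and mitotic members build the spindle and move chromosomes. The centromere is the chromosome region marked by the histone variant CENPA, on which the inner kinetochore proteins of the CCAN (constitutive centromere-associated network) and then the outer kinetochore are assembled. Cyclins A2 and B1 drive entry into mitosis, and the kinases Aurora A and TTK act on spindle poles and on the spindle checkpoint. Many of these genes are transcribed mainly in G2 and M phase, so in a dividing cell line their RNA depends on how many cells are in those phases. In bulk RNA, fewer cells of a kind and less RNA per cell cannot be told apart.

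Values were taken as log2(FPKM + 1) and compared with limma over all 30 libraries. A gene was called at a Benjamini-Hochberg adjusted p below 0.05 over the 8531 genes, and "rose" and "fell" are used only for called genes. Log2 changes are on the log2(FPKM + 1) scale, which understates changes of genes near 1 FPKM. Wells are printed for the 6 regulators, CENPA, CENPE, CENPF, KIF11, KIF2C and KIF5B whether or not they overlapped control. Other members were picked for large called changes without overlap, so for them non-overlap was a condition of choice and is no result. Where counts after median-of-ratios scaling are added, the shares of all genes given are still those before scaling. The deposited values carry no read counts, so the depth behind each value is unknown. FPKM sums per library were 199985 to 220259, and wells of a group correlated at 0.9835 to 0.9923 across genes. Of the 7 epithelial markers found, 3 passed the level filter (KRT8, KRT18 and KRT19), while EPCAM, CDH1, KRT5 and TP63 did not. Of 8 fibroblast markers 4 passed, COL1A1 and THY1 among them, and the summed level of all 8 was 145.9 to 361 FPKM over the group means. Of 6 immune markers CD14 and CD68 passed, with CD3E listed at 0 in every library and a summed level of 18.1 to 29.3 FPKM. The part of these ranges in the results was not tested. No ciliated, secretory, endothelial or red blood cell marker passed.

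Well 3 of the electric heater at 2 h stood apart from its group in long transcripts: CENPF was 12.2, 12.8 and 7.71 FPKM in the 3 wells and KIF5B was 49.9, 51.02 and 39.1. Between transcript length and a library's difference from the mean of the same-time control wells, Spearman's rho over tested genes was -0.492 in that well and -0.366 and -0.351 in the other wells. Counts of members, the length relation and the falls of KIF14, KIF20B, CENPE, CENPF and KIF5B after the heater at 2 h are given with and without it.

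All members were read above 0 in every library. In the 2 h control the highest levels, which FPKM gives per transcript length, were those of CCNB1 (185 ± 3.52 FPKM, SD, n = 3 here and below), CENPB (98.9 ± 0.811) and AURKA (96.8 ± 5.78). The lowest were KIF5C (1.23 ± 0.0943), KIF21A (1.62 ± 0.117) and KIF5A (2.01 ± 0.0884). Over the 10 groups the least variable members were CENPN, with a 1.24-fold range of group means (highest over lowest), and CENPB, with 1.25-fold. CENPC, CENPE and CENPF had the widest ranges, 4.58-fold, 3.51-fold and 2.68-fold. CENPC and KIF21A reached 1 FPKM in 20 of the 30 libraries and their folds are the least secure of the members. KIF4B is a retrogene nearly identical to KIF4A, so reads listed for it may come from either gene. KIF4B was counted among the other kinesins.

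Promoters are shown because many members fell together at 2 h. Start-site windows from 250 bases before to 50 bases after the start were taken from RefSeq (GRCh38.p14) and found for 31 of 37 members. They were searched on both strands for TTTGAA, the cell cycle homology region (CHR) bound by complexes of the DREAM and MYB-MuvB family, and for CCAAT, the site of NF-Y. Capitals mark matches of either strand, and a match on the opposite strand appears as its reverse complement. Each window is written 5′ to 3′ on the strand of its gene: CENPF (chr1:214602945-214603244, plus strand), HMMR (chr5:163460382-163460681, plus strand), KIF20B (chr10:89701340-89701639, plus strand), CENPK (chr5:65563119-65563418, minus strand) and CENPE (chr4:103198294-103198593, minus strand).
CENPF: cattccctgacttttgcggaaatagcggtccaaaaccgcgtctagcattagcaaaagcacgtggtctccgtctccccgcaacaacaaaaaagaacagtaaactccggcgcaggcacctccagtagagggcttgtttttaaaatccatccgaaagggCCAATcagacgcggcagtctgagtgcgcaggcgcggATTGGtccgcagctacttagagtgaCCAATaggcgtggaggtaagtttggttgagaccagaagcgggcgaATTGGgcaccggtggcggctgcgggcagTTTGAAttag
HMMR: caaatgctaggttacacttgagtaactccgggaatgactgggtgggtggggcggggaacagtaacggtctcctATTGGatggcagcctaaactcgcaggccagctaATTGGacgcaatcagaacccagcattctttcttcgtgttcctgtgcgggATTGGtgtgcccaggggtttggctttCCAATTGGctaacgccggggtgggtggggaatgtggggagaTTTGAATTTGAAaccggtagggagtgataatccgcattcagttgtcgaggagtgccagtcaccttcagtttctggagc
KIF20B: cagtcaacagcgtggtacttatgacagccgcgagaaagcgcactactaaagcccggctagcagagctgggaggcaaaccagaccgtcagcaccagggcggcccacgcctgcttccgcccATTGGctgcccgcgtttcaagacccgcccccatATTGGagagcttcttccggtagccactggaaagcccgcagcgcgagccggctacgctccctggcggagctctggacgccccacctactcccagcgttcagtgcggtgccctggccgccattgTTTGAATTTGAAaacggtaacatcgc
CENPK: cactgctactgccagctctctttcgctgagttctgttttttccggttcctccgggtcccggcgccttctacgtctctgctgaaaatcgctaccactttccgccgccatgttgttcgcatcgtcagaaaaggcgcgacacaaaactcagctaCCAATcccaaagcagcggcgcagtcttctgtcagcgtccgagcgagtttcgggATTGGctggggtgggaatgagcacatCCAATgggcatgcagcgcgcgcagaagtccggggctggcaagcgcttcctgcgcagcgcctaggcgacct
CENPE: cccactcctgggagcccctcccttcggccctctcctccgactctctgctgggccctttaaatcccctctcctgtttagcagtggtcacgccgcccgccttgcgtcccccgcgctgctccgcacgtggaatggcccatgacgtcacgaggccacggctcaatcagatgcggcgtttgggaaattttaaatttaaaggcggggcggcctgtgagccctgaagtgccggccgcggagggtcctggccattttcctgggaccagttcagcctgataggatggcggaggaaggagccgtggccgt
CENPF holds 1 TTTGAA and 4 CCAAT, HMMR 2 and 5, and KIF20B 2 and 2. CENPK, which was not called at 2 h, holds 3 CCAAT and no TTTGAA, while CENPE, among the members with the largest falls, holds neither in this window. Of windows not printed, CENPN, also not called at 2 h, holds 1 TTTGAA and 1 CCAAT. KIF2C, which fell after the charcoal exposures, holds neither. Whether matches differ between members that fell and those that did not was not tested.

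Over the 31 windows TTTGAA was present in 13 (41.9%), against 15.2% of all 35116 promoters of the same length and 9.2% of the 6267 promoters of tested genes. CCAAT was present in 18 (58.1%), against 34.6% and 36.7%. Both stood together in 11 (35.5%), against 5.9% and 3.9%. By role, TTTGAA was found in 5 of 7 mitotic kinesins, 2 of 4 regulators, 4 of 12 centromere proteins and 2 of 8 other kinesins. The E2F-type letters TTTNGCGC occurred in 4 windows (12.9%), against 1.8% and 3.1%. A match describes letters in the window and says nothing of binding in these cells.

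At 2 h most mitotic regulators and mitotic kinesins fell in every exposure, and few members rose. Charcoal alone lowered 19 of 37 members and raised 0 (limma; 20 below and 0 above at an unadjusted p under 0.05), where 16.2% of all tested genes were called lower and 8.16% higher. Herbal shisha lowered 26 and raised 1 (all genes 27.7% and 10.6%), tobacco shisha on charcoal lowered 25 and raised 0 (26.7% and 8.5%; 27 below and 1 above unadjusted), and tobacco shisha on the electric heater lowered 19 and raised 2 (24.8% and 9.27%), or 17 and 2 without heater well 3. The members' median log2 changes were -0.17, -0.34, -0.36 and -0.19 in that order, beside -0.08, -0.07, -0.08 and -0.04 over all tested genes. These 4 comparisons share the 3 control wells, so their likeness is no independent evidence.

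Counted by role, in the order charcoal alone, herbal shisha, tobacco shisha on charcoal and electric heater, falls at 2 h numbered 6, 6, 5 and 4 of 6 regulators and 7, 6, 7 and 5 of 7 mitotic kinesins. Of 14 centromere proteins 4, 6, 5 and 3 fell, and 0, 1, 0 and 2 rose. Of 10 other kinesins 2, 8, 8 and 7 fell. Over all genes 16.2%, 27.7%, 26.7% and 24.8% were called lower and 8.16%, 10.6%, 8.5% and 9.27% higher, before any scaling. The falls of centromere proteins after the heater and of other kinesins after charcoal alone were near those shares. The counts after scaling that follow have no share of all genes after scaling beside them. After median-of-ratios scaling the falls numbered 6, 5, 4 and 2 regulators, 7, 6, 6 and 5 mitotic kinesins, 2, 6, 5 and 3 centromere proteins and 0, 3, 5 and 5 other kinesins, and the rises of centromere proteins 0, 3, 1 and 3, with CENPK and CENPW added after herbal shisha, CENPU after tobacco shisha on charcoal and CENPH after the heater. In all 4 exposures 14 members fell: AURKA, CCNA2, NDC80, TTK, CENPC, CENPE, CENPF, KIF11, KIF14, KIF15, KIF18A, KIF20B, KIF3B and KIF5A. Of these, 8 were called in all 4 exposures under every processing alternative (CCNA2, TTK, CENPC, KIF11, KIF14, KIF15, KIF18A and KIF20B). How many of all tested genes fell in all 4 was not counted, so neither number is set against a background.

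**Figure D1:**
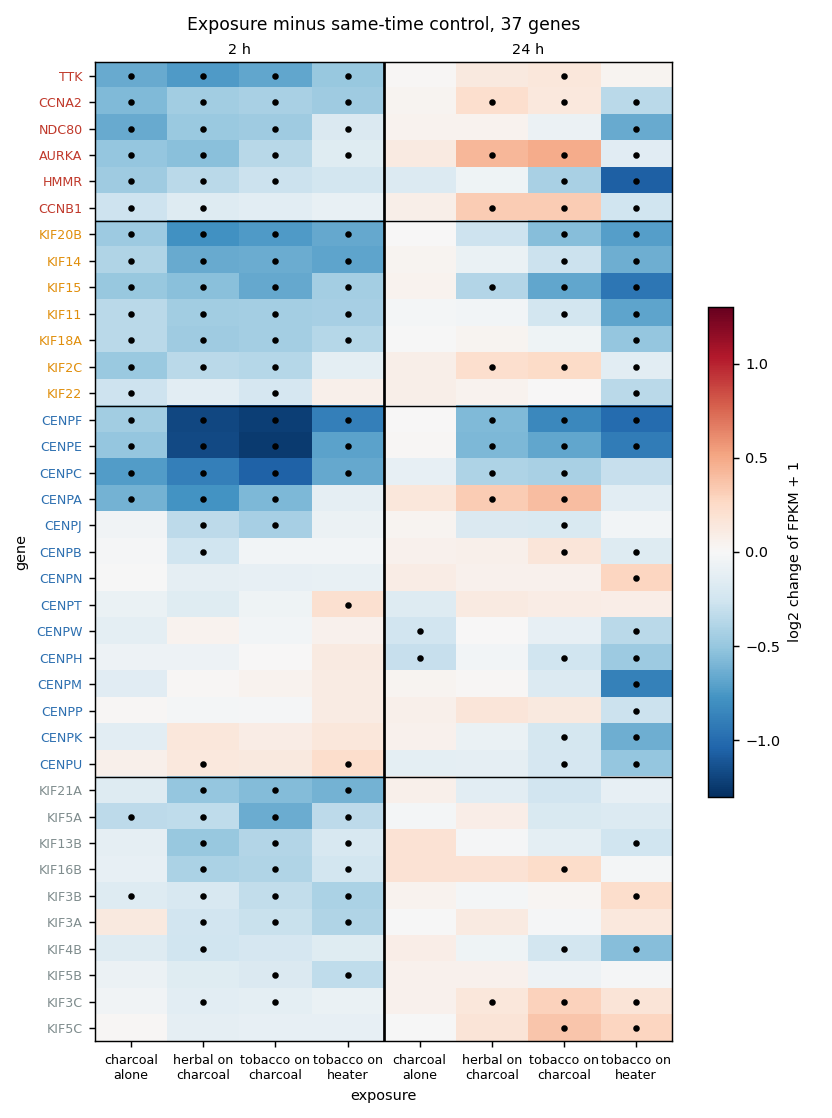
Log2 change against the same-time control for 37 genes (rows, label colour by role) in 8 exposure comparisons (columns), on the log2(FPKM + 1) scale, with a black dot where limma's adjusted p was below 0.05. The columns at 2 h are mostly blue with dots for regulators and mitotic kinesins, the column for charcoal alone at 24 h holds 2 dots, and that for the electric heater at 24 h holds 27.

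TTK (MPS1) is the kinase that starts the spindle checkpoint (chr6:80004649-80042527). It read 28.1, 28.3 and 29.3 FPKM in the control wells at 2 h, 17.7, 18.2 and 17.5 after charcoal alone, 17.1, 16.4 and 16.7 after herbal shisha, 17.1, 17.2 and 18.3 after tobacco shisha on charcoal and 17.6, 21.4 and 21.00 after the electric heater. Every exposed well lay below every control well. Its log2 changes were -0.65 (SE 0.05, adjusted p = 1.17e-09), -0.74 (SE 0.05, adjusted p = 1.51e-10), -0.67 (SE 0.05, adjusted p = 6.29e-10) and -0.50 (SE 0.05, adjusted p = 6.44e-08).

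NDC80 (HEC1), the outer kinetochore protein that binds microtubules (chr18:2571557-2616635), read 59.1, 61.8 and 61.1 FPKM in control wells. The exposed wells read 38.5, 39.2 and 37.2 after charcoal alone, 41.03, 43.3 and 44.8 after herbal shisha, 44.3, 42.9 and 44.1 after tobacco shisha on charcoal and 49.6, 53.3 and 56.5 after the heater. No exposed well reached the control wells, and the heater wells came closest. NDC80 fell by 0.65 (SE 0.07, adjusted p = 2.17e-07), 0.49 (SE 0.07, adjusted p = 8.92e-06), 0.46 (SE 0.07, adjusted p = 1.98e-05) and 0.19 (SE 0.07, adjusted p = 0.0426) on the log2 scale. The heater call was lost without any 1 of 5 wells, control wells 1, 2 and 3 (adjusted p = 0.0587, 0.111 and 0.0969) and heater wells 1 and 2 (0.183 and 0.072), by limma with Benjamini-Hochberg adjustment.

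Cyclin A2, encoded by CCNA2 (chr4:121816444-121823883), partners CDK2 and CDK1 in S and G2 phase. CCNA2 was 52.5, 51.4 and 50.4 FPKM in control wells, 34.9, 34.1 and 33.8 after charcoal alone, 38.4, 37.6 and 36.3 after herbal shisha, 39.3, 38.2 and 37.3 after tobacco shisha on charcoal and 33.98, 37.7 and 39.5 after the heater. All 12 exposed wells were below the control wells, and the 4 log2 changes were close: -0.57 (SE 0.06, adjusted p = 3.78e-08), -0.45 (SE 0.06, adjusted p = 1e-06), -0.42 (SE 0.06, adjusted p = 2.91e-06) and -0.47 (SE 0.06, adjusted p = 7.44e-07).

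CCNB1 encodes cyclin B1, which activates CDK1 for mitosis (chr5:69167150-69178245), and had the smallest changes of the 6 regulators. Its wells read 181, 185 and 188 FPKM in control, 150.1, 158 and 153 after charcoal alone, 169.8, 158 and 165 after herbal shisha, 169, 165 and 170.2 after tobacco shisha on charcoal and 164, 168 and 187 after the heater. The heater wells overlapped the control wells and the others did not. CCNB1 fell by 0.27 (SE 0.07, adjusted p = 0.00423) after charcoal alone and by 0.17 (SE 0.07, adjusted p = 0.0455) after herbal shisha on the log2 scale, while the values after tobacco shisha on charcoal and the heater were -0.14 (SE 0.07, adjusted p = 0.111) and -0.10 (SE 0.07, adjusted p = 0.281) and were not called. The herbal call was lost without any 1 of the 6 wells compared (adjusted p 0.052 to 0.15) and after median-of-ratios scaling (0.343).

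AURKA, the Aurora A kinase of centrosomes and spindle poles (chr20:56369390-56392215), was 95.5, 91.8 and 103 FPKM in control wells. It was 69.3, 66.4 and 67.5 after charcoal alone, 65.99, 65.4 and 66.2 after herbal shisha, 76.4, 73.6 and 75.8 after tobacco shisha on charcoal and 82.2, 89.5 and 87.5 after the heater. Control wells stayed above all exposed wells. The log2 changes were -0.51 (SE 0.06, adjusted p = 1.02e-06), -0.55 (SE 0.06, adjusted p = 2.48e-07), -0.36 (SE 0.06, adjusted p = 7.41e-05) and -0.16 (SE 0.06, adjusted p = 0.0441). For the heater, the call was lost without control well 1 or 3 (adjusted p = 0.0739 and 0.209) or heater well 1 or 3 (0.171 and 0.073).

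HMMR encodes a spindle-associated hyaluronan receptor (chr5:163460632-163491941). In control wells it read 38.9, 40.7 and 38.3 FPKM, against 27.6, 29.3 and 28.1 after charcoal alone, 29.6, 31.3 and 30.9 after herbal shisha, 32.9, 32.4 and 31.2 after tobacco shisha on charcoal and 31.2, 35.99 and 32.1 after the heater. Exposed wells were below control throughout, yet only 3 of the 4 changes were called: -0.46 (SE 0.10, adjusted p = 0.000985), -0.35 (SE 0.10, adjusted p = 0.0056) and -0.28 (SE 0.10, adjusted p = 0.0262), with -0.24 (SE 0.10, adjusted p = 0.0542) for the heater. For tobacco shisha on charcoal the call was lost without control well 1 or 2 (adjusted p = 0.0533 and 0.0837) or exposed well 2 or 3 (0.0529 and 0.0793).

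At 2 h the 7 mitotic kinesins had median log2 changes of -0.40, -0.46, -0.44 and -0.44 in the order above. KIF11 (Eg5) pushes spindle poles apart (chr10:92593130-92655395), and its wells read 43.5, 45.01 and 43.6 FPKM in control, 34.5, 35.1 and 33.4 after charcoal alone, 30.6, 32.6 and 32.4 after herbal shisha, 32.2, 32.2 and 32.02 after tobacco shisha on charcoal and 31.1, 34.8 and 31.1 after the heater. All exposed wells were lower, with log2 changes of -0.35 (SE 0.06, adjusted p = 0.000166), -0.45 (SE 0.06, adjusted p = 3.62e-06), -0.44 (SE 0.06, adjusted p = 5.86e-06) and -0.44 (SE 0.06, adjusted p = 7.19e-06). KIF2C (MCAK) shortens microtubules at centromeres (chr1:44739837-44767767) and read 52.99, 54.8 and 53.6 FPKM in control, 39.1, 38.2 and 37.5 after charcoal alone, 40.9, 41.99 and 42.6 after herbal shisha, 43.1, 40.6 and 40.8 after tobacco shisha on charcoal and 47.3, 47.7 and 52.99 after the heater. The charcoal exposures lay below control, whereas the highest heater well met the lowest control well at 52.99 FPKM. The heater change of -0.12 (SE 0.05, adjusted p = 0.0775) was not called, and the 3 charcoal exposures gave -0.48 (SE 0.05, adjusted p = 3.01e-07), -0.36 (SE 0.05, adjusted p = 1.42e-05) and -0.37 (SE 0.05, adjusted p = 1.08e-05).

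KIF14, which acts in cytokinesis (chr1:200551497-200620751), was 10.4, 10.3 and 10.6 FPKM in control and 6.43, 7.18 and 4.89 after the heater, where it had a log2 change of -0.69 (SE 0.09, adjusted p = 2.44e-06), and the fall was still called without heater well 3, at -0.55. KIF20B, a further cytokinesis kinesin whose promoter is shown above, fell by 0.47 (SE 0.11, adjusted p = 0.00228), 0.79 (SE 0.11, adjusted p = 4.03e-06), 0.74 (SE 0.11, adjusted p = 1.03e-05) and 0.67 (SE 0.11, adjusted p = 3.71e-05) on the log2 scale, the last being -0.56 (adjusted p = 0.000548) without heater well 3. KIF15, a spindle kinesin that backs up KIF11, and KIF18A, which damps chromosome oscillation, also fell in all 4, by 0.44 to 0.67 on the log2 scale and by 0.35 to 0.46. KIF22, a chromosome arm motor, fell after charcoal alone (log2 change -0.27, SE 0.06, adjusted p = 0.000688) and tobacco shisha on charcoal (log2 change -0.22, SE 0.06, adjusted p = 0.00333), the latter not after median-of-ratios scaling (adjusted p = 0.0795).

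The 14 centromere proteins ranged from the largest falls of all members to small rises. CENPE, a kinetochore-bound kinesin-like motor, and CENPF, a large outer kinetochore protein, had the largest falls after herbal shisha and tobacco shisha on charcoal, followed by CENPC, the inner kinetochore scaffold. CENPE (chr4:103105811-103198343) read 4.27, 3.99 and 4.14 FPKM in control, 2.35, 2.84 and 2.72 after charcoal alone, 1.44, 1.25 and 1.16 after herbal shisha, 0.951, 1.39 and 1.19 after tobacco shisha on charcoal and 2.61, 2.81 and 1.31 after the heater. No exposed well overlapped control, and the changes were -0.50 (SE 0.16, adjusted p = 0.0231), -1.17 (SE 0.16, adjusted p = 3.2e-06), -1.24 (SE 0.16, adjusted p = 1.67e-06) and -0.70 (SE 0.16, adjusted p = 0.00137).

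CENPF (chr1:214603195-214664571) read 21.3, 20.5 and 20.01 FPKM in control, 14.8, 14.5 and 15.2 after charcoal alone, 9.22, 8.34 and 8.10 after herbal shisha, 8.30, 7.71 and 8.70 after tobacco shisha on charcoal and 12.2, 12.8 and 7.71 after the heater. All exposed wells were below control. The log2 changes were -0.45 (SE 0.16, adjusted p = 0.0392), -1.18 (SE 0.16, adjusted p = 2.63e-06), -1.23 (SE 0.16, adjusted p = 1.78e-06) and -0.89 (SE 0.16, adjusted p = 0.000104). Without heater well 3 the heater changes were -0.68 (adjusted p = 0.0013) for CENPF and -0.47 (0.0173) for CENPE. After charcoal alone the CENPF call was lost without any 1 of the 6 wells (adjusted p 0.0704 to 0.105), and the CENPE call without control well 1 or 3 (0.0677 and 0.0572) or charcoal well 1 (0.0914). Median-of-ratios scaling ended both (adjusted p = 0.113 and 0.0565).

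CENPC (chr4:67468762-67545503) read 2.07, 2.52 and 2.1 FPKM in control, 0.737, 1.14 and 0.993 after charcoal alone, 0.727, 0.637 and 0.851 after herbal shisha, 0.441, 0.469 and 0.785 after tobacco shisha on charcoal and 0.866, 1.09 and 1.14 after the heater. These levels straddle 1 FPKM, where folds on this scale are compressed, and no exposed well reached control. Its changes were -0.73 (SE 0.13, adjusted p = 0.000259), -0.89 (SE 0.13, adjusted p = 1.24e-05), -1.05 (SE 0.13, adjusted p = 1.75e-06) and -0.67 (SE 0.13, adjusted p = 0.000403). CENPA, the centromeric histone H3 variant (chr2:26786056-26794589), read 27.8, 37.1 and 30.05 in control, 19.96, 19.8 and 20.6 after charcoal alone, 19.3, 16.2 and 18.4 after herbal shisha, 21.1, 20.4 and 20.4 after tobacco shisha on charcoal and 27.8, 26.1 and 33.7 after the heater. The 3 charcoal exposures lay below control with changes of -0.62 (SE 0.11, adjusted p = 0.000252), -0.78 (SE 0.11, adjusted p = 9.06e-06) and -0.58 (SE 0.11, adjusted p = 0.000288), while heater wells overlapped control (log2 change -0.11, SE 0.11, adjusted p = 0.485).

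Beside CENPC, the members of the inner kinetochore network (CENPH, CENPK, CENPM, CENPN, CENPP, CENPT, CENPU and CENPW, a grouping made after the values were seen) did not fall at 2 h. Of the 9 with CENPC, 1 fell in each exposure. CENPU (chr4:184694085-184734096) was 14.8, 14.4 and 14.97 FPKM in control, 16.6, 16.2 and 16.2 after herbal shisha and 17.4, 18 and 16.8 after the heater, with every exposed well of both above control. It rose by 0.14 (SE 0.06, adjusted p = 0.0473) and 0.23 (SE 0.06, adjusted p = 0.00235), the herbal call being lost without any 1 of the 6 wells (adjusted p 0.0677 to 0.133). CENPT (chr16:67828157-67847693), which links DNA to NDC80, rose after the heater from 4.80, 4.62 and 4.76 to 5.47, 5.75 and 5.63 FPKM, with no overlap (log2 change 0.21, SE 0.06, adjusted p = 0.0145). Without control well 2 that adjusted p was 0.0501. CENPB, which binds the alphoid repeat, fell after herbal shisha (log2 change -0.26, SE 0.06, adjusted p = 0.00228), and the centriole protein CENPJ fell after herbal shisha (log2 change -0.34, SE 0.08, adjusted p = 0.00129) and tobacco shisha on charcoal (log2 change -0.43, SE 0.08, adjusted p = 0.000128). Whether these exposures differ from the others was tested only for the pairs given further on.

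The 10 other kinesins, most of them motors of interphase transport, had median log2 changes of -0.11, -0.25, -0.31 and -0.29. KIF5B, the main conventional kinesin heavy chain (chr10:32009015-32056425), read 59.5, 58.7 and 58.00 FPKM in control, 54.5, 55.4 and 57.02 after charcoal alone, 53.7, 51.1 and 53.3 after herbal shisha, 50.4, 50.2 and 53.6 after tobacco shisha on charcoal and 49.9, 51.02 and 39.1 after the heater. Its exposed wells were below control in each exposure, but only the heater (log2 change -0.33, SE 0.07, adjusted p = 0.00095) and tobacco shisha on charcoal (log2 change -0.19, SE 0.07, adjusted p = 0.0472) were called. Without heater well 3 the heater change was -0.21 (adjusted p = 0.00938). The tobacco call was lost without any 1 of 5 wells, control wells 1, 2 and 3 (0.113, 0.0929 and 0.0793) and exposed wells 1 and 2 (0.118 and 0.123). Of the remaining 9, KIF3B (a kinesin-2 motor of cilia and transport) and KIF5A fell in all 4 and KIF5C in none. Median-of-ratios scaling ended the KIF3B and KIF5A calls after charcoal alone and herbal shisha, and also those of KIF3A, KIF3C and KIF4B after herbal shisha, KIF3A, KIF3C and KIF5B after tobacco shisha on charcoal and KIF13B and KIF16B after the heater. Several calls also rested on single wells. After charcoal alone, KIF3B and KIF5A were lost without charcoal well 1 (adjusted p = 0.117 and 0.123, the highest of 4 wells that ended each call). After herbal shisha, KIF3A was lost without herbal well 3 (0.12), KIF4B without herbal well 2 (0.104) and KIF5A without control well 3 (0.0619), again the highest of several. After the heater, KIF5A was lost without heater well 2 (0.0705) and KIF13B and KIF16B without heater well 3 (0.244 and 0.177), in each case the highest of several wells that ended the call.

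**Figure D2:**
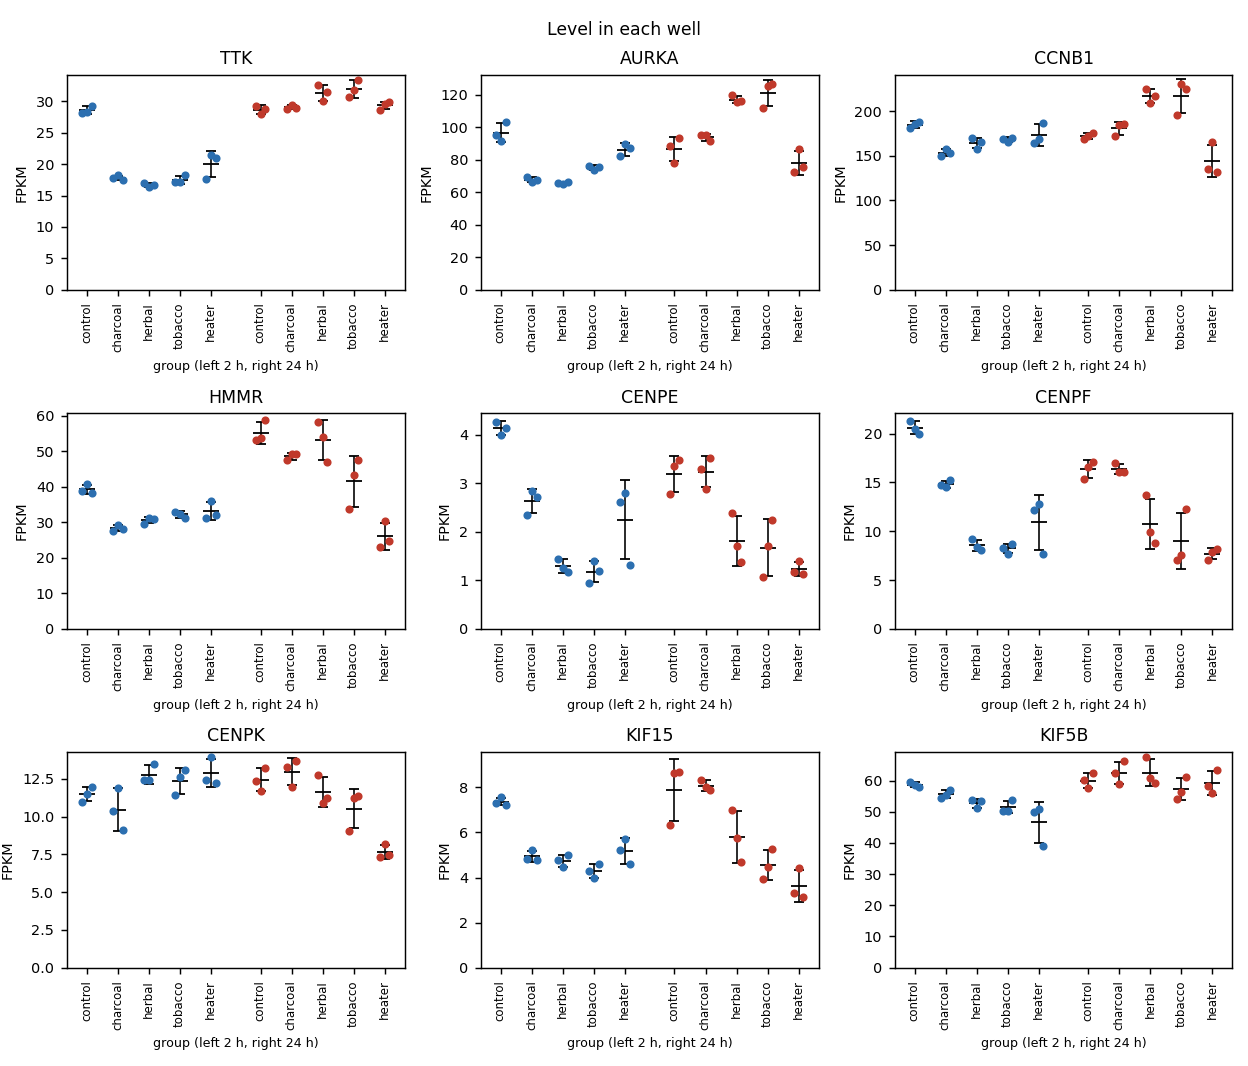
FPKM in each of 3 wells (points) with the group mean and SD for TTK, AURKA, CCNB1, HMMR, CENPE, CENPF, CENPK, KIF15 and KIF5B, at 2 h (left, blue) and 24 h (right, red) in control and 4 exposures. At 2 h TTK control wells lie above all exposed wells, while at 24 h the heater wells of HMMR, KIF15 and CENPK lie below control.

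Genes outside the members give the wider setting. The lists of related genes were named with earlier results of these data known. Members and untested genes were left out of them, so that 11 of 22 other kinetochore genes were counted. Of 12 tested checkpoint and chromosomal passenger genes, 8, 6, 7 and 5 fell at 2 h, CDCA8 (borealin) from 53.2 ± 1.05 FPKM in control to 33.3 ± 1.15 after charcoal alone. Of 15 entry and exit genes 9, 9, 7 and 7 fell and at most 2 rose, and CCNF (cyclin F) went from 14.7 ± 0.329 to 5.21 ± 0.295 FPKM after tobacco shisha on charcoal. Of 11 other kinetochore genes 6, 5, 5 and 5 fell and at most 1 rose, with HJURP, the CENPA chaperone, at 34.1 ± 0.859 in control and 17.9 ± 0.86 after charcoal alone. Of 13 S phase genes 1, 2, 3 and 1 fell, where 16.2%, 27.7%, 26.7% and 24.8% of all genes were called lower. Counts this small were not tested against those shares, and 3 of 13 is near its share. The 15 G1 and arrest genes were mixed, with 4, 3, 3 and 3 higher (all genes 8.16%, 10.6%, 8.5% and 9.27%) and 4, 6, 4 and 6 lower. Among them CDKN1A, the p21 inhibitor of cyclin-dependent kinases, rose from 41.4 ± 1.56 FPKM to 65.9 ± 2.99, 92.2 ± 3.6, 75.0 ± 0.838 and 74.6 ± 8.06 in the same order (limma adjusted p at most 7.71e-06). CDKN1B, which encodes the related inhibitor p27, fell from 49.4 ± 0.761 FPKM to 29.8 ± 0.778, 32.6 ± 0.854, 31.3 ± 1.77 and 39.05 ± 0.59 (limma adjusted p at most 0.000856).

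Members with longer transcripts had lower changes at 2 h in 3 of the exposures. Spearman's rho between transcript length and log2 change, over the 37 members, was -0.10 for charcoal alone, -0.46 for herbal shisha, -0.52 for tobacco shisha on charcoal and -0.59 for the heater. Over the 7824 tested genes with a length it was -0.03, -0.23, -0.24 and -0.44. Without heater well 3 the heater values were -0.50 over members and -0.38 over all genes. At 24 h the members' rho was 0.04, -0.29, -0.27 and -0.03 in the same order, beside 0.10, -0.14, -0.16 and -0.05 over all genes. These are descriptions over genes that share the same libraries. Members spanned 541 bases (CENPM) to 10307 bases (CENPF), and CENPE and CENPC have 8241 and 6940 bases. The part of transcript length in these falls was not tested. In the control over time the corresponding values were 0.03 and -0.03. Single control wells, each against the mean of the other control wells of its time, varied more. Their members' rho was 0.183, -0.149 and 0.031 at 2 h and -0.318, 0.074 and 0.339 at 24 h. The members' values for the exposures at 24 h lie within that 24 h range.

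**Figure D3:**
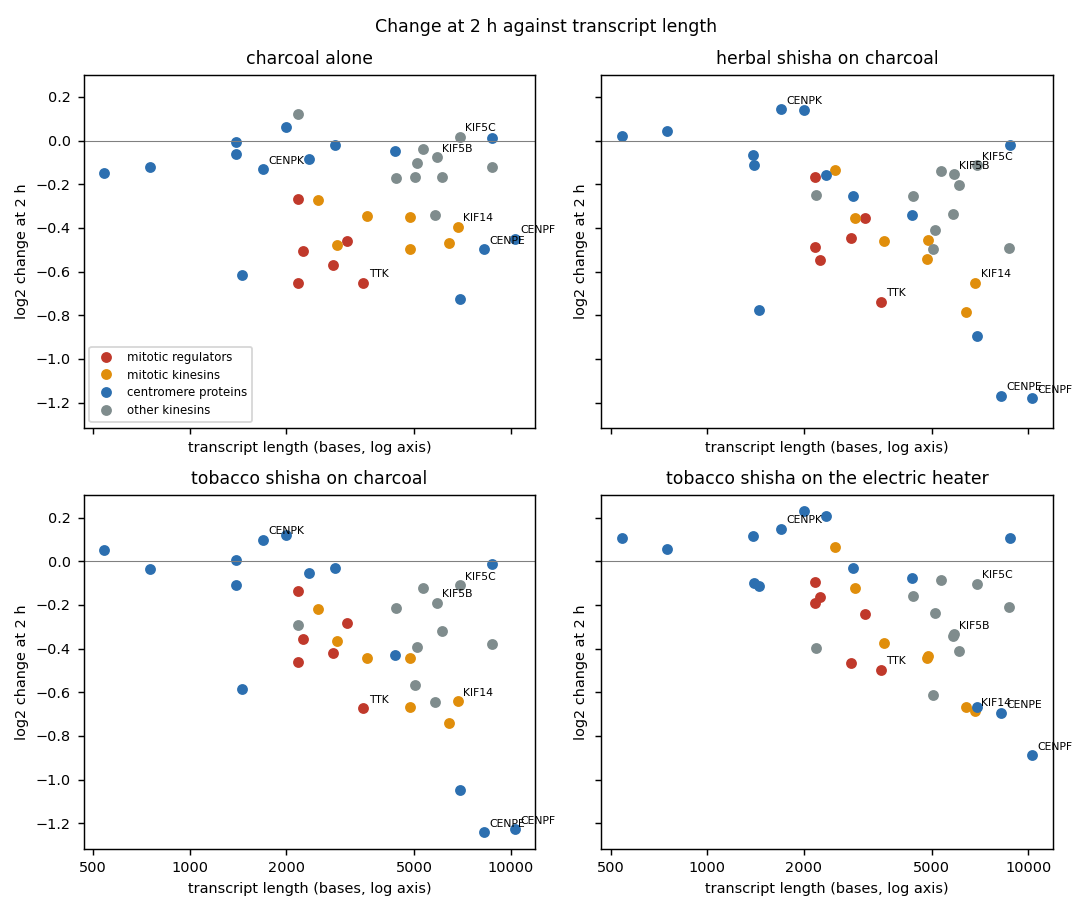
Log2 change at 2 h against transcript length (bases, log axis) for 37 members, 1 panel per exposure. Points slope downward for herbal shisha, tobacco shisha on charcoal and the heater, with rho of -0.46, -0.52 and -0.59, and less for charcoal alone (-0.10).

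In control wells 2 members rose between 2 h and 24 h and 0 fell (limma; 2 below and 2 above at an unadjusted p under 0.05), where 7.44% of all genes were called higher and 9.44% lower. HMMR went from 38.9, 40.7 and 38.3 to 53.2, 53.6 and 58.8 FPKM (log2 change 0.48, SE 0.10, adjusted p = 0.00129) and CENPH, an inner kinetochore protein (chr5:69189583-69210357), from 24.6, 26.2 and 25.3 to 36.3, 31.4 and 33.2 (log2 change 0.39, SE 0.06, adjusted p = 3.96e-05). Neither gene's wells overlapped between the times. HMMR and CENPH are therefore read at 24 h against controls of a different level. With these 2 groups fitted alone, 7 members were called. The shares of all genes above belong to the fit over all groups, so this count has no share beside it.

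At 24 h charcoal alone left few differences. It lowered 2 members and raised 0 (limma; 4 below and 2 above unadjusted), where 3.82% of all genes were called lower and 6.05% higher. CENPH read 27.7, 27.1 and 26.7 FPKM against 36.3, 31.4 and 33.2 in control (log2 change -0.29, SE 0.06, adjusted p = 0.00168). CENPW (chr6:126340115-126483320), the histone-fold partner of CENPT, read 8.38, 7.68 and 8.25 against 10.1, 9.98 and 9.36 (log2 change -0.25, SE 0.05, adjusted p = 0.00148). Neither overlapped control. None of the 19 members that had fallen at 2 h was called at 24 h.

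The regulators 24 h after charcoal alone lay close to control. TTK read 28.7, 29.4 and 28.98 FPKM against 29.3, 27.9 and 28.8, NDC80 60.9, 61.3 and 62.1 against 58.4, 58.5 and 61.05, and CCNA2 53.6, 54.6 and 55.8 against 52.4, 52.9 and 54.7. CCNB1 read 172, 184 and 186 against 169, 172 and 175 and AURKA 95.3, 95.3 and 91.6 against 88.4, 78.4 and 93.2. The wells of these 5 overlapped control, while HMMR (47.4, 49.1 and 49.2 against 53.2, 53.6 and 58.8) lay below it without being called (log2 change -0.18, SE 0.10, adjusted p = 0.279). Among the others, CENPA read 33.4, 35.6 and 29.5, CENPE 3.30, 2.89 and 3.53, CENPF 17.01, 16.1 and 16.1, KIF11 48.9, 46.4 and 46.8 and KIF5B 62.4, 58.99 and 66.1, all overlapping control. KIF2C, at 53.3, 55.3 and 54.7 against 50.7, 50.8 and 52.9, lay above control in every well and was not called (log2 change 0.08, SE 0.05, adjusted p = 0.421).

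Herbal shisha at 24 h raised 6 members and lowered 4 (16.5% and 10.4% of all genes), or 5 and 6 after median-of-ratios scaling. Before scaling both counts were near the shares over all genes. Higher members included AURKA at 119.7, 115 and 116 FPKM against 88.4, 78.4 and 93.2 in control (log2 change 0.43, SE 0.06, adjusted p = 2.92e-05), CCNB1 at 225, 209 and 217 against 169, 172 and 175 (log2 change 0.33, SE 0.07, adjusted p = 0.000733) and CENPA at 37.9, 35.98 and 38.2 against 30.6, 29.4 and 28.5 (log2 change 0.33, SE 0.11, adjusted p = 0.034). The wells of these 3 genes lay above control, although the CENPA call was lost without any 1 of the 6 wells (adjusted p 0.0506 to 0.0986). CCNA2 read 61.3, 63.99 and 61.02 against 52.4, 52.9 and 54.7 (log2 change 0.22, SE 0.06, adjusted p = 0.00628) and KIF2C read 61.1, 59.3 and 59.3 against 50.7, 50.8 and 52.9 (log2 change 0.22, SE 0.05, adjusted p = 0.005), both without overlap. TTK (32.6, 30.02 and 31.4) lay above control in every well but was not called (log2 change 0.12, SE 0.05, adjusted p = 0.0708). NDC80 (66.4, 59.1 and 58.97), HMMR (58.1, 54.01 and 47.02), KIF11 (49.2, 48.1 and 43.7) and KIF5B (67.7, 60.7 and 59.3) overlapped control and were not called.

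Lower members after herbal shisha at 24 h were CENPE, CENPF, CENPC and KIF15. CENPE read 2.38, 1.70 and 1.37 FPKM against 2.78, 3.35 and 3.47 (log2 change -0.59, SE 0.16, adjusted p = 0.00828), CENPF 13.7, 9.91 and 8.78 against 15.3, 16.6 and 17.1 (log2 change -0.58, SE 0.16, adjusted p = 0.00904) and CENPC 2.27, 2.1 and 0.979 against 2.59, 2.63 and 2.55 (log2 change -0.40, SE 0.13, adjusted p = 0.0291). No well of these 3 overlapped control, while KIF15 wells did (log2 change -0.38, SE 0.12, adjusted p = 0.0179). For CENPC non-overlap was a condition of its choice. All 4 calls were lost without herbal well 3, with adjusted p of 0.0635 for CENPE, 0.0699 for CENPF, 0.288 for CENPC and 0.144 for KIF15.

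Tobacco shisha on charcoal at 24 h raised 10 members and lowered 13 (25.9% and 18.6% of all genes), or 6 and 15 after median-of-ratios scaling. Before scaling the rises were near the share over all genes and the falls above it. Regulators accounted for 4 of the rises and 1 fall. AURKA was 112, 125 and 126 FPKM (log2 change 0.48, SE 0.06, adjusted p = 1.85e-06) and CCNB1 196, 230.4 and 224 (log2 change 0.33, SE 0.07, adjusted p = 0.000302), above the control wells given before. CENPA was 36.6, 43.7 and 37.7 (log2 change 0.40, SE 0.11, adjusted p = 0.00622) and KIF2C 57.1, 64.5 and 62.8 (log2 change 0.25, SE 0.05, adjusted p = 0.000662), also without overlap. TTK was 30.6, 31.8 and 33.4 against 29.3, 27.9 and 28.8 (log2 change 0.15, SE 0.05, adjusted p = 0.0176), which was lost without control well 2 (0.0721) or exposed well 3 (0.0854). CCNA2 was 52.2, 63.99 and 60.8, overlapped control, and its call (log2 change 0.14, SE 0.06, adjusted p = 0.0482) was lost without any 1 of 5 wells, control wells 1, 2 and 3 (0.126, 0.109 and 0.0522) and exposed wells 2 and 3 (0.293 and 0.148). KIF5C, a neuronal kinesin heavy chain (chr2:148875227-149026759), was 2.45, 1.501 and 1.71 against 1.24, 1.12 and 1.33 (log2 change 0.36, SE 0.09, adjusted p = 0.00349; adjusted p = 0.0677 with these groups fitted alone).

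Falls after tobacco shisha on charcoal at 24 h were led by kinetochore and spindle genes. CENPF was 7.10, 7.54 and 12.2 FPKM (log2 change -0.83, SE 0.16, adjusted p = 0.00017), CENPE was 1.07, 1.71 and 2.24 (log2 change -0.67, SE 0.16, adjusted p = 0.00141) and KIF15 (chr3:44761794-44868687) was 3.95, 4.45 and 5.25 against 6.32, 8.64 and 8.70 (log2 change -0.67, SE 0.12, adjusted p = 7.24e-05). Their wells did not overlap control, which for KIF15 was a condition of its choice. HMMR was 33.6, 43.2 and 47.6 against 53.2, 53.6 and 58.8 (log2 change -0.42, SE 0.10, adjusted p = 0.00124) and KIF11 36.5, 41.8 and 43.9 against 47.6, 46.9 and 50.03 (log2 change -0.24, SE 0.06, adjusted p = 0.00315). Both stayed below control in every well. NDC80 (48.95, 60.6 and 59.5; log2 change -0.08, SE 0.07, adjusted p = 0.392) and KIF5B (54.2, 56.2 and 61.3; log2 change -0.07, SE 0.07, adjusted p = 0.479) overlapped control and were not called.

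The electric heater at 24 h lowered 23 members and raised 4 (29.5% and 34.3% of all genes), 24 below and 4 above at an unadjusted p under 0.05. All 7 mitotic kinesins fell, with a median log2 change of -0.64, as did 5 of 6 regulators and 9 of 14 centromere proteins. HMMR read 22.99, 30.2 and 24.7 FPKM against 53.2, 53.6 and 58.8 (log2 change -1.07, SE 0.10, adjusted p = 2.24e-09), CENPF 7.09, 7.83 and 8.17 against 15.3, 16.6 and 17.1 (log2 change -0.996, SE 0.16, adjusted p = 7.34e-06) and KIF15 3.30, 4.44 and 3.15 against 6.32, 8.64 and 8.70 (log2 change -0.94, SE 0.12, adjusted p = 2.81e-07). No heater well of these 3 reached control, which for KIF15 was a condition of its choice.

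Other heater values at 24 h ran the same way. CENPE was 1.17, 1.40 and 1.13 FPKM (log2 change -0.91, SE 0.16, adjusted p = 2.61e-05), NDC80 34.4, 42.5 and 35.7 against 58.4, 58.5 and 61.05 (log2 change -0.65, SE 0.07, adjusted p = 3.92e-08) and KIF11 28.3, 32.8 and 27.9 (log2 change -0.68, SE 0.06, adjusted p = 2.22e-09). CCNA2 was 39.6, 43.2 and 41.8 (log2 change -0.35, SE 0.06, adjusted p = 6.98e-06) and CCNB1 136, 165 and 131 (log2 change -0.26, SE 0.07, adjusted p = 0.00147). All 5 were without overlap. AURKA (72.6, 86.6 and 75.3; log2 change -0.15, SE 0.06, adjusted p = 0.0406) and KIF2C (44.3, 52.1 and 43.7; log2 change -0.14, SE 0.05, adjusted p = 0.0251) overlapped control, and single wells ended both calls: for AURKA control wells 1 and 3 (0.113 and 0.226) and heater wells 1 and 3 (0.22 and 0.133), for KIF2C control well 3 (0.0875) and heater wells 1 and 3 (0.129 and 0.153).

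TTK (28.7, 29.5 and 29.8 FPKM; log2 change 0.03, SE 0.05, adjusted p = 0.595), CENPA (24.6, 33.5 and 23.2; log2 change -0.14, SE 0.11, adjusted p = 0.299) and KIF5B (58.4, 55.98 and 63.3; log2 change -0.02, SE 0.07, adjusted p = 0.824) were not called after the heater at 24 h. TTK and KIF5B had fallen at 2 h in the same exposure. Inner kinetochore members that had not fallen at 2 h were lower: CENPM by 0.88 (SE 0.09, adjusted p = 9.02e-09), CENPK by 0.63 (SE 0.09, adjusted p = 1.11e-06), CENPU by 0.51 (SE 0.06, adjusted p = 3.71e-08) and CENPH by 0.47 (SE 0.06, adjusted p = 2.11e-07). CENPN, of the same network (chr16:81007214-81033107), went the other way, at 12.3, 11.8 and 13.2 FPKM against 10.1, 10.5 and 9.56 (log2 change 0.28, SE 0.06, adjusted p = 0.000142), though over all groups its range was the narrowest. KIF5C was 1.70, 1.47 and 1.95 (log2 change 0.28, SE 0.09, adjusted p = 0.0133; lost without control well 2, 0.0566, or heater well 3, 0.0814) and KIF3B (chr20:32277651-32335011) was 22.7, 21.8 and 23.6 against 18.8, 19.8 and 19.2 (log2 change 0.23, SE 0.06, adjusted p = 0.00129), each above control in every well.

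Among related genes after the heater at 24 h, 9 of 12 checkpoint and passenger genes, 9 of 15 entry and exit genes and 12 of 13 S phase genes fell. Over all genes 29.5% were called lower there. MCM6, a subunit of the replicative helicase, was 16.9 ± 1.09 FPKM against 42.1 ± 1.11 in control. MYBL2, the B-MYB activator of mitotic genes, was 142 ± 6.63 against 246 ± 8.22. After tobacco shisha on charcoal 10 of the 13 S phase genes fell (18.6% of all genes), and 3 of 12 checkpoint and passenger genes rose, a share near that of all genes (25.9%).

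Whether the effect at 24 h differed from that at 2 h was tested by an interaction term. Charcoal alone gave 15 members with a higher effect at 24 h and 1 with a lower (16.2% and 7% of all genes). After median-of-ratios scaling it gave 8 and 3, and the shares of all genes in this paragraph are those before scaling. Herbal shisha gave 21 and 1 (24% and 8.3%; 13 and 2 after scaling), tobacco shisha on charcoal 17 and 3 (30.3% and 10.8%; 11 and 5 after scaling) and the heater 8 and 12 (34.8% and 22.8%; 7 and 14 after scaling, and 7 and 12 without heater well 3 at 2 h). Median differences over members were 0.29, 0.36, 0.28 and -0.05, beside 0.09, 0.12, 0.13 and 0.09 over all genes. Scaling sets each library's median ratio over genes to the same value, so all-gene medians near 0 after it are fixed by the method. Calls kept under every alternative numbered 7 of 16, 14 of 22, 13 of 20 and 17 of 20.

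AURKA had among the largest differences, 0.98 (SE 0.09, adjusted p = 2.98e-08) for herbal shisha and 0.84 (SE 0.09, adjusted p = 1.94e-07) for tobacco shisha on charcoal, with 0.02 (SE 0.09, adjusted p = 0.893) for the heater. TTK differed in all 4 exposures (0.67, 0.86, 0.82 and 0.53). HMMR, which had a lower effect at 24 h for the heater (log2 difference -0.82, SE 0.14, adjusted p = 2.25e-05), was not called for the other 3. CENPM (log2 difference -0.99, SE 0.12, adjusted p = 6.67e-07) and CENPK (log2 difference -0.78, SE 0.12, adjusted p = 1.16e-05) had the lowest heater differences beside HMMR. CENPC, CENPE and CENPF, which were below control at both times after herbal shisha, had differences of 0.49 (SE 0.19, adjusted p = 0.0499), 0.58 (SE 0.22, adjusted p = 0.0496) and 0.60 (SE 0.22, adjusted p = 0.0407). Scaling ended these 3 calls (adjusted p = 0.1, 0.106 and 0.117), as did leaving out any of several wells, among them herbal well 1 at 24 h (0.152, 0.143 and 0.132).

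**Figure D4:**
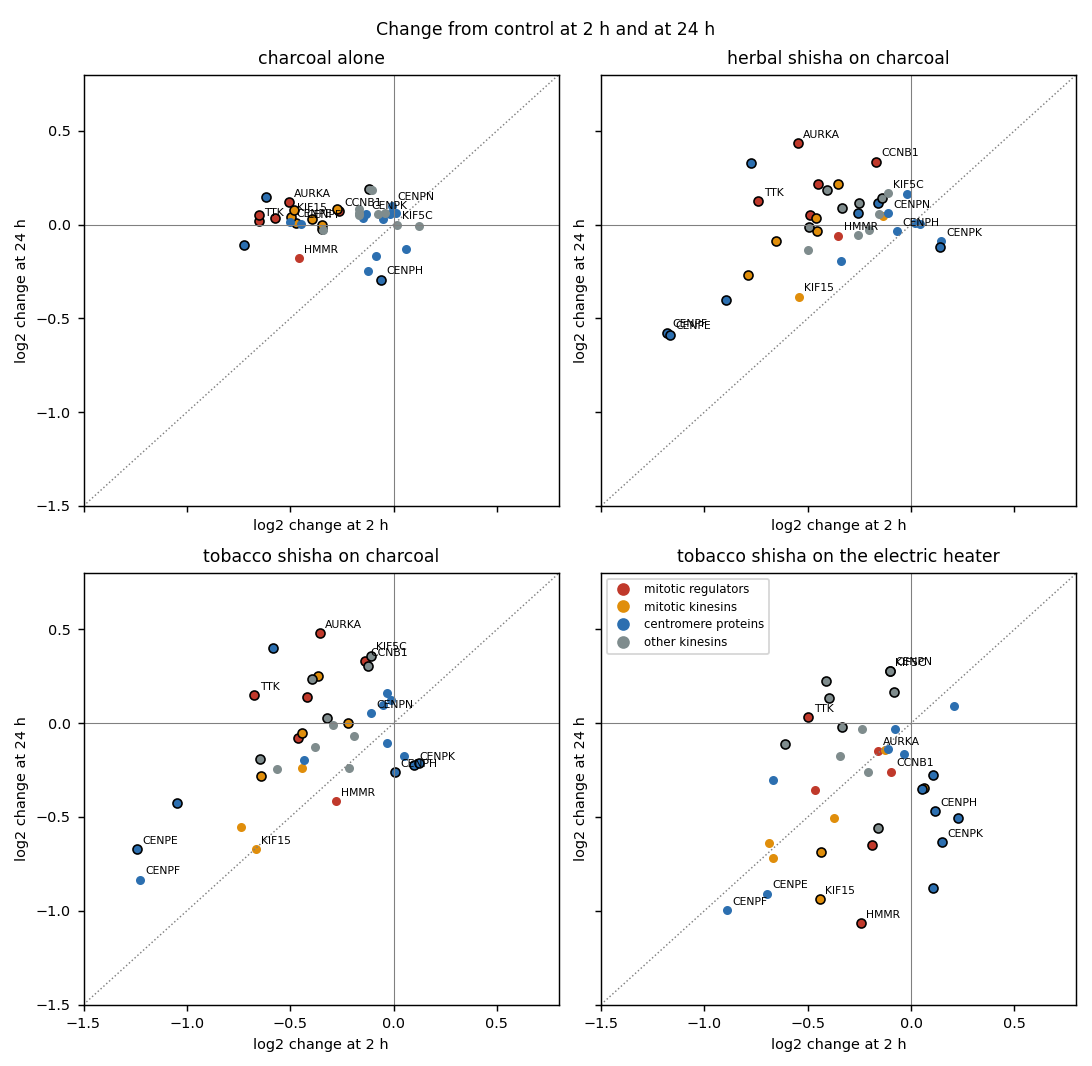
Log2 change at 24 h against log2 change at 2 h for 37 members, 1 panel per exposure, with a dotted line of equal change and a black outline where the interaction term had an adjusted p below 0.05. Outlined points number 16, 22, 20 and 20, and 12 of the 20 for the heater lie below the line.

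Exposures were also compared with each other. Herbal shisha against charcoal alone at 2 h gave 2 members higher and 11 lower (10.1% and 14.3% of all genes; 4 and 11 after scaling), CENPF (log2 difference -0.73, SE 0.16, adjusted p = 0.00162) and CENPE (log2 difference -0.67, SE 0.16, adjusted p = 0.00333) among them. The 13 calls became 6 without herbal well 3 and 7 without charcoal well 2. Tobacco shisha on charcoal against herbal shisha at 2 h gave 0 members in either direction (limma; 2 higher and 1 lower at an unadjusted p under 0.05), with 0.305% of all genes called higher and 0.305% lower. Tobacco shisha on charcoal was lower than tobacco shisha on the heater in 10 members at 2 h and higher in 0 (12.7% and 10.6%; 4 lower with these groups fitted alone, and 9 without heater well 3). CENPA was among the 10 (log2 difference -0.47, SE 0.11, adjusted p = 0.00412). Doses were set separately for each exposure, so heat source and dose cannot be told apart.

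At 24 h herbal shisha against charcoal alone gave 6 higher and 5 lower members, near the shares of all genes (16.2% and 15.3%), with AURKA higher (log2 difference 0.31, SE 0.06, adjusted p = 0.000487) and CENPE lower (log2 difference -0.60, SE 0.16, adjusted p = 0.00559). Tobacco shisha on charcoal against herbal shisha gave 1 higher and 2 lower (2.41% and 2.71%): KIF3C (log2 difference 0.16, SE 0.03, adjusted p = 0.0107), CENPH (log2 difference -0.22, SE 0.06, adjusted p = 0.0267) and HMMR (log2 difference -0.36, SE 0.10, adjusted p = 0.0345), of which none was kept under every alternative. Tobacco shisha on charcoal lay above the heater in 21 members and below it in 2 (24.9% and 22.9%). These included CENPM (log2 difference 0.71, SE 0.09, adjusted p = 1.25e-06), HMMR (log2 difference 0.65, SE 0.10, adjusted p = 1.09e-05), AURKA (log2 difference 0.63, SE 0.06, adjusted p = 5.9e-08), CCNB1 (log2 difference 0.59, SE 0.07, adjusted p = 3.43e-07) and NDC80 (log2 difference 0.57, SE 0.07, adjusted p = 1.3e-06), and CENPN was 1 of the 2 below (log2 difference -0.23, SE 0.06, adjusted p = 0.00195).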

How the data were processed

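RNA from 30 wells (10 groups of 3) was made into TruSeq libraries from 1 ug of total RNA and sequenced single-end for 50 bp, on an Illumina HiSeq, per the labels and the series' design text. The submitters' processing notes name HISAT2 2.1.0, StringTie 1.3.4d and the hg38 build. Gene annotation release, strand setting and filters: not given in the sources used here. FPKM per transcript is the unit of the deposited values, per the file headers, without read numbers. Low values showed no step of 1 read (10.4% of 173 low rows fell in the commonest bin), so no count test was run and depth is unknown.

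The 29190 rows carried 22538 names, and the row with the highest mean was kept for each name. Of 27 names turned into date serials, 26 were recovered. A gene was tested at 1 FPKM or more in at least 3 of 30 libraries. Values were taken as log2(FPKM + 1) with a pseudocount of 1 and fitted in limma 3.58.1 (R 4.3.3, trend, 10 group means, no block, residual degrees of freedom 20) for 19 comparisons, with Benjamini-Hochberg adjustment over 8531 genes at 0.05. The script was tested on simulated data. Wells were not known to be independent cultures.

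Values in every well were given for the 6 regulators, CENPA, CENPE, CENPF, KIF11, KIF2C, KIF5B and for the 3 largest falls and rises per comparison among called members whose wells did not overlap control. Of related-gene lists, the 2 smallest p per comparison could be named. Alternatives were median-of-ratios scaling, no low-value filter, a pseudocount of 0.1, a replicate block, the compared groups fitted alone, rows of 1 name summed, and leaving out each library. The members and lists were chosen with earlier results of these data known. Coordinates and promoters are from RefSeq GRCh38.p14.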

Additional observations from a re-analysis of the deposited data

Results flagged for a closer look

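By limma's interaction term, the effect of exposure differed between 2 h and 24 h in 16 members with charcoal alone and in 22 with herbal shisha on charcoal. It differed in 20 with tobacco shisha on charcoal and in 20 with the electric heater. Over all genes 23.2%, 32.3%, 41.1% and 57.6% were called, in that order. For the heater the members' 54.1% was near the share of all genes. Among the members' calls, 15 results had a called change in opposite directions at the 2 times and a called difference between them. That difference is given here as the log2 effect at 24 h minus that at 2 h.

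After herbal shisha the difference was 0.981 for AURKA, 0.663 for CCNA2, 0.504 for CCNB1, 1.107 for CENPA, 0.57 for KIF2C and 0.284 for KIF3C, all lower than control at 2 h and higher at 24 h. After tobacco shisha on charcoal it was 0.838 for AURKA, 0.556 for CCNA2, 0.984 for CENPA, 0.629 for KIF16B, 0.616 for KIF2C, 0.425 for KIF3C and 0.824 for TTK, in the same direction. After the electric heater KIF3B had 0.639 in that direction, and CENPU had -0.737, being higher than control at 2 h and lower at 24 h. All 15 interaction calls were kept under every alternative that was run. Results picked for called changes in opposite directions tend to have large differences, so this is no independent support. How many of all tested genes met the same conditions was not counted.

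Some of the single-time calls behind these were not kept. These were CCNB1 at 2 h and CENPA at 24 h after herbal shisha, and CCNA2, KIF16B and TTK at 24 h after tobacco shisha on charcoal. For KIF16B at 24 h the call was lost without control well 1 (adjusted p = 0.134) or exposed well 3 (0.158). KIF3C at 2 h was lost after median-of-ratios scaling (adjusted p = 0.169 with herbal shisha and 0.478 with tobacco shisha on charcoal) and, in the tobacco exposure, without control well 1 (0.0514). KIF3C at 24 h after herbal shisha was lost with these groups fitted alone (0.0671).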

How the results depend on the processing

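Of 294 called gene results, 97 lost their call under at least 1 alternative and 0 changed direction (446 of 3996 gene results and alternatives lost the call). With the compared groups fitted alone, the count of called members was 7 for control over time (2 over all groups), 4 for tobacco shisha on charcoal against the heater at 2 h (10) and 0 for tobacco shisha on charcoal against herbal shisha at 24 h (3). The cause was not tested beyond the fewer libraries in those fits, and shares of all genes under them are not given here.

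Leaving out 1 library gave these ranges of called members. At 2 h against control they were 15 to 18 for charcoal alone, 22 to 25 for herbal shisha, 21 to 25 for tobacco shisha on charcoal and 16 to 21 for the heater. At 24 h they were 2 to 2, 5 to 11, 18 to 21 and 23 to 29, and for control over time 2 to 3. For the effect at 24 h minus that at 2 h they were 12 to 15, 16 to 24, 16 to 20 and 18 to 23. Herbal shisha against charcoal alone gave 6 to 10 at 2 h and 7 to 13 at 24 h, tobacco shisha on charcoal against herbal shisha 0 to 0 and 0 to 6, and tobacco shisha on charcoal against the heater 7 to 9 and 21 to 27.

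Single libraries decided some counts. Without herbal well 3 at 24 h the count was 5 against control (10 with it), 7 against charcoal alone (11) and 6 in tobacco shisha on charcoal against herbal shisha (3). That last count was 1 and 0 without herbal wells 1 and 2, and 0 and 6 without tobacco wells 1 and 3. Herbal shisha against charcoal alone at 2 h (13) gave 7 without charcoal well 2 and 6 without herbal well 3.

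The labels give replicate numbers, but same-numbered wells of the same time had deviations that correlated at -0.107 to 0.231 (median 0.032; 6 of 60 pairs over 0.1), so the numbers were not taken to pair wells. With the replicate block the counts at 2 h were 19, 26, 24 and 21 called members, and at 24 h 2, 10, 23 and 27, and no count moved by over 1.5 times. Depth is unknown, and only 3 wells a group limit precision.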
